A study of Homo sapiens with 11 samples.

Results

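The 4 genes described here encode a pair of signalling peptides and receptors for one of them: neuropeptide Y (NPY), its receptors NPY1R and NPY5R, and cholecystokinin (CCK). They were taken by name, and the regions are every peak within the annotated gene body or 100 kb on either side of it (GRCh38). Of 134925 peaks in 9 lists, 21 fell in these windows, and the genes are 4 of 20037 protein-coding genes of the gene table. The data are chromatin immunoprecipitation sequencing (ChIP-seq) of SKNMC, an established human Ewing sarcoma cell line labelled wildtype. SKNMC cells carry the EWSR1::FLI1 fusion, whose FLI1 part binds DNA. The series held 11 samples: 1 each for FLI1, CHD4 (through a Flag antibody), HDAC2, MTA2, RBBP4, H3K27ac, H3K4me1, H3K4me3 and H3K27me3, and 2 input libraries, which were not analysed here. All samples came from the same line in the same medium with no treatment named. The origin of the tag is, for that sample, not given in the sources used here. Its list shows tagged CHD4 only.

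Neuropeptide Y is a peptide of sympathetic and central neurons, made as a larger precursor that is cut in secretory vesicles. NPY1R and NPY5R are G protein-coupled receptors for it, and their genes lie side by side and are read from opposite strands. Cholecystokinin is a peptide of the gut and of neurons, related to gastrin. Ewing sarcoma cells are known to make both peptides and to carry NPY receptors. The NuRD complex joins nucleosome remodelling to histone deacetylation. CHD4 is its ATPase, HDAC2 one of its deacetylases, MTA2 a scaffold, and RBBP4 binds histones and is also found in other complexes. H3K27ac lies at active promoters and enhancers, H3K4me1 at enhancers, H3K4me3 at promoters and H3K27me3 in Polycomb-repressed chromatin.

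Each target had 1 peak list, with no read counts and no replicate, so depth is unknown, no value has an error and no difference could be tested. The 2 values of a peak are its fold enrichment (signal at the summit relative to nearby background) and its −log10 p, both from the authors' peak caller. The lists held between 1561 (FLI1) and 31247 (H3K4me1) peaks. The smallest −log10 p was 5.02 in the FLI1 list, 7.01 for RBBP4 and about 9 in the other lists. Heights in different lists are therefore compared only by the place of each in its own list. A fold enrichment given without its place is to be set only beside others of the same list. The 8 Ewing sarcoma genes (among them NR0B1, NKX2-2 and CAV1) were listed because FLI1 peaks beside them are known. They are therefore no independent check of the cell type. All 8 had a FLI1 peak within 100 kb, as had 1 of 11 markers of blood, muscle, epithelium and neuroblastoma (PTPRC), against 12.7% of all coding genes. The windows of the 8 held a median of 49 peaks, those of the 11 a median of 7. Of the 11, HAND2 had H3K27ac, H3K4me3 and HDAC2 within 1 kb of its start and GATA3 had H3K4me3, while 6 had no listed start.

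The sequences just upstream of the annotated starts differed among the 4 genes. Below are the 250 bases before 5 starts, from RefSeq on GRCh38.p14, printed 5′ to 3′ on the strand of the gene. They are shown because the results turn on which of these starts lay under a peak. In the first 4, capitals mark CG dinucleotides, the base pair step that is dense in CpG island promoters. In the last, capitals mark the bases that lay under the FLI1 peak.
NPY, chr7:24283940-24284189, + strand: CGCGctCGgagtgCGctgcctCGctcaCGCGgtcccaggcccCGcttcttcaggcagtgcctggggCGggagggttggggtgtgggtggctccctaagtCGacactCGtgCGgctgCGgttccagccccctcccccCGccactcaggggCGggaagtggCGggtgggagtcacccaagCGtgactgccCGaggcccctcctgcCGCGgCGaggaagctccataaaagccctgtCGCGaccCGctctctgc
NPY1R, chr4:163332597-163332846, - strand: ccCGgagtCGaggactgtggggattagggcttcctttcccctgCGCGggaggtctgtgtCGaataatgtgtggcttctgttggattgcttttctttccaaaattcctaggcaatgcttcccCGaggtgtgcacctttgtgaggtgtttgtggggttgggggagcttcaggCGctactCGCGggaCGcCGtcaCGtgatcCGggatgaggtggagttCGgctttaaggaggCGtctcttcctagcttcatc
NPY5R, first start, chr4:163343642-163343891, + strand: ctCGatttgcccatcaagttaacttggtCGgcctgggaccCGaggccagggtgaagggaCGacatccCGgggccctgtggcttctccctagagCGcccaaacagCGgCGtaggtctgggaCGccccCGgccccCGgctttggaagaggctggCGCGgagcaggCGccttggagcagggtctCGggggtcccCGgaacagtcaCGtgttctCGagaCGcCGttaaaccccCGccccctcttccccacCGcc
CCK, inner start, chr3:42263948-42264197, - strand: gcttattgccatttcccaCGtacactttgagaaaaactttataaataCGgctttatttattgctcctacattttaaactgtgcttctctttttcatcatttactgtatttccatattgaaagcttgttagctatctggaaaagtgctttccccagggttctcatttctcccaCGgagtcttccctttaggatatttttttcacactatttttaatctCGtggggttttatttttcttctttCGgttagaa
CCK, outer start, chr3:42266186-42266435, - strand: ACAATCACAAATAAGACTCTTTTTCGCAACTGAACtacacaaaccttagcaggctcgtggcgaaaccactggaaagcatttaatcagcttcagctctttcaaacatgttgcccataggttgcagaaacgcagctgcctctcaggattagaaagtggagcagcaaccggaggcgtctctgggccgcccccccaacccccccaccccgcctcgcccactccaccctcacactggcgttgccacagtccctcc

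The stretch before NPY held 24 CG dinucleotides and that before NPY1R 15. NPY5R had 22 before its first start and 33 before a second start 210 bp on, at 163344102, whose stretch is not printed because it overlaps the first. The outer CCK start had 10 and the inner one 5. The median over 22199 such stretches of protein-coding genes was 16. The number of CG dinucleotides did not sort these starts by H3K4me3: a peak of that mark lay over the NPY1R start and the inner CCK start, the stretch with the fewest, and over neither NPY nor either start of NPY5R. The motif GGAA, the core of sites for ETS factors such as FLI1, was counted on both strands (as GGAA or TTCC). It occurred 6 times before NPY1R, 5 times before the inner CCK start, 3 times each before NPY and the first NPY5R start and once each before the second NPY5R start and the outer CCK start, and 92.5% of all stretches held it at least once. The tandem GGAAGGAA (or TTCCTTCC) was in none of these 6 stretches and in 3.17% of all.

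CCK, the cholecystokinin gene (chromosome 3, 42257826 to 42266185, minus strand), was the only member with a FLI1 peak in its window, and that peak lay directly upstream of its outer start. The peak spanned 42266401 to 42266775, which is 216 to 590 bp before the start at 42266185, in sequence outside any gene of the table. Its fold enrichment was 5.95 and its −log10 p 9.99. These values place it low in the FLI1 list, at or above 33.8% of the peaks by fold enrichment and 12.2% by −log10 p. When every list was held to −log10 p of 15 or more, the peak was lost and no member had FLI1 in its window. FLI1 peaks within 1 kb of an annotated start are rare: 0.884% of 15843 coding genes with a listed start had one. The peak covered the outermost 35 bases of the printed stretch, which hold no GGAA on either strand. The other 340 bases under the peak lie beyond that stretch, and their sequence was not used here.

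Acetylation flanked the FLI1 peak at CCK on both sides without overlapping it. One H3K27ac peak (42265533 to 42266309) lay over the outer start, with a fold enrichment of 10.03 and −log10 p of 24.2, and ended 92 bp from the FLI1 peak. A further 3 H3K27ac peaks lay upstream, between 823 and 2085 bp before the start, the nearest 233 bp beyond the FLI1 peak. Their fold enrichments were 8.37, 7.89 and 6.05, falling with distance from the start. H3K27ac within 1 kb of a start was common, at 42.2% of coding genes. No H3K4me1 peak was found there, the nearest being 70.02 kb from the FLI1 peak, inside TRAK1.

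H3K4me3 at CCK lay over the inner start and not over the outer one. Its peak ran from 42262533 to 42264745 inside the gene, 1440 to 3652 bp downstream of the outer start, and covered the inner start at 42263947. The fold enrichment was 15.8 and −log10 p 39.8, at or above 47.9% of the H3K4me3 list by fold enrichment and 27.3% by −log10 p. Within 1 kb of a start, 61.1% of coding genes had an H3K4me3 peak. The peaks of the 2 active marks thus lay apart along the gene, with H3K27ac at the outer start and H3K4me3 at the inner one, and 788 bp between them.

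**Figure D1:**
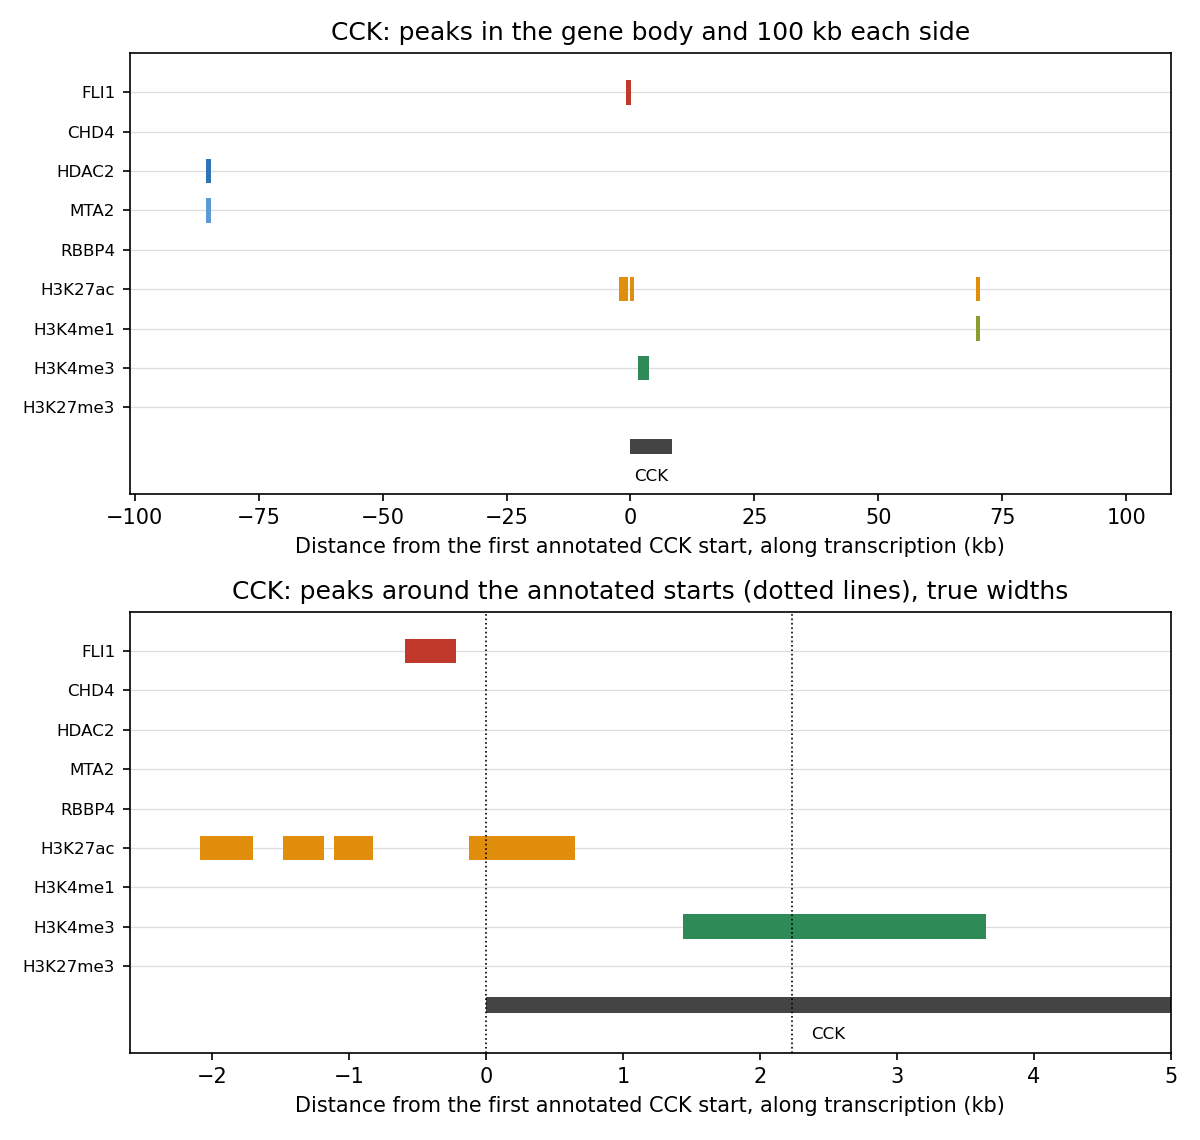
Peaks of the 9 lists around CCK, as bars placed by distance in kb from the outer annotated start along the direction of transcription, with the gene body in grey. The upper panel covers 100 kb each side (narrow peaks drawn wider than they are), the lower panel the starts at true width, where the FLI1 peak sits 216 to 590 bp upstream between H3K27ac peaks and H3K4me3 lies over the inner start.

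None of the 4 NuRD subunits had a peak at the CCK start. Of all FLI1 peaks 14.4% (225 of 1561) overlapped no subunit, and the CCK peak was 1 of these. The nearest subunit peak to it was HDAC2 at 84.3 kb. The median fold enrichment was 6.31 for the 225 peaks and 7.29 for the whole FLI1 list, against 5.95 at CCK, and an H3K27ac peak was within 1 kb of 50.7% of the 225. A FLI1 peak lying within 1 kb of a coding start, overlapping neither a subunit nor H3K27ac, and with H3K27ac within 1 kb on both sides, was found at 2 of 1561 peaks. This arrangement was looked for after the values at CCK were seen. Its conditions were those met at CCK, so a small count was built in. Of the 1561 peaks, 117 lay within 1 kb of a coding start, and 31 of these overlapped no subunit. H3K27ac on both sides without overlap was found at 252 FLI1 peaks (16.1%), 43 of them without a subunit. Of the 2 peaks with the whole arrangement, the second was at CEP20 (fold enrichment 5.36, −log10 p 10.4). Both peaks are lost at a −log10 p of 15.

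Elsewhere in the CCK window 2 places carried peaks. At 42351092 to 42351572, between genes and 84.9 kb upstream of CCK, HDAC2 had a fold enrichment of 9.84 (at or above 98.3% of its list, and 81.2% by −log10 p) and MTA2 one of 4.24 (6.37%, and 1.60% by −log10 p). Of these overlapping peaks, HDAC2 stood high and MTA2 low in its list. That place is 9.43 kb from an end of LYZL4, a lysozyme-like gene, and carried no histone mark peak. Inside TRAK1, a gene for a mitochondrial transport adaptor 31.9 kb from CCK, an H3K27ac peak (fold enrichment 6.95) overlapped an H3K4me1 peak (6.22). CHD4 and RBBP4 had no peak in the window, whereas 61.4% of coding genes had a CHD4 peak and 71.1% an RBBP4 peak in theirs. HDAC2 was found in 81.3% of windows and MTA2 in 70.0%.

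NPY1R and NPY5R (chromosome 4, 163323962 to 163344689 and 163343892 to 163352403) overlap as annotated, and their windows held the same 11 peaks, so the pair counts as 1 locus. The peaks fell in 2 groups, 1 at the NPY1R start and 1 between genes beyond NPY5R. Neither FLI1 nor H3K27me3 had a peak in the window. Over all coding genes FLI1 had one in 12.7% of windows and H3K27me3 in 14.5%, so their absence from a window is the usual state. The distance to H3K27me3 was not usual. Its nearest peak lay 20453 kb from NPY1R, against a median of 758 kb, and 93.0% of coding genes had one nearer.

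The NPY1R start (163332596, minus strand) carried both active marks and 2 of the 4 subunits. H3K4me3 ran from 679 bp upstream to 2132 bp downstream with a fold enrichment of 23.2 (−log10 p 81.5), at or above 84.3% of its list by fold enrichment and 64.3% by −log10 p. At CCK the fold enrichment was 15.8. H3K27ac lay 56 to 619 bp upstream, with a fold enrichment of 7.66. RBBP4 lay inside the acetylated stretch, 242 to 396 bp upstream, with a fold enrichment of 5.35 and −log10 p of 15.2. HDAC2 had a weak peak over the start itself (fold enrichment 3.82, −log10 p 9.70), at or above 13.6% of its list by fold enrichment and 0.402% by −log10 p. A second HDAC2 peak lay 310 to 547 bp downstream, with a fold enrichment of 5.11 and −log10 p of 13.8. It stood at or above 50.9% of its list by fold enrichment and 11.5% by −log10 p. HDAC2 and RBBP4 did not share bases here, and the H3K27ac, RBBP4 and both HDAC2 peaks all lay inside the H3K4me3 peak. The gene body as annotated continues upstream of this start to 163344689, so these peaks are within NPY1R. No other NPY1R start was listed, and no peak of any list lay over that outer end.

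CHD4 and MTA2 had no peak within 1 kb of the NPY1R start. Within that distance CHD4 was found at 11.0%, MTA2 at 22.1%, RBBP4 at 23.9% and HDAC2 at 41.2% of coding genes. HDAC2 with RBBP4, in the absence of CHD4 and MTA2, was seen at 7.34% of all genes. Among the genes that also had H3K4me3 and H3K27ac near a start (41.5% of all), it was 13.7%. NPY1R was in this minority with the lists as given. Both HDAC2 peaks at its start fall below −log10 p of 15 (9.70 and 13.8), while RBBP4 has 15.2. At that cut the combination is lost at NPY1R, and its share over all genes was not recomputed.

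NPY5R, the second receptor, had no peak of any list over either of its annotated starts or its gene body. The nearest was the H3K4me3 peak of NPY1R, 10.6 kb away, followed by H3K27ac (10.7 kb), RBBP4 (10.9 kb) and HDAC2 (11.1 kb) of the same group. Neither receptor gene had a FLI1 peak in its window, and the nearest lay 147 kb from NPY1R and 167 kb from NPY5R, with a fold enrichment of 8.70 and −log10 p of 21.8. The median distance over coding genes was 747 kb, and 16.5% of genes had a FLI1 peak nearer than NPY1R had. This FLI1 peak overlapped a site with all 4 subunits (163176019 to 163177351) that also overlapped H3K27ac. The mean place of the site's subunits in their lists by fold enrichment was 89.3%.

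All 4 NuRD subunits met at a single place in the member windows, 52.2 kb beyond the end of NPY5R (163404585 to 163405068), outside any gene of the table. The fold enrichments were 10.6 for HDAC2, 8.55 for RBBP4, 7.91 for MTA2 and 5.68 for CHD4. HDAC2 stood at or above 99.05% of its list and RBBP4 at or above 98.1%, while CHD4 (76.8%) and MTA2 (71.2%) stood lower in theirs, all by fold enrichment. By −log10 p the places were lower, at 88.0% for HDAC2, 81.7% for RBBP4, 65.2% for MTA2 and 38.7% for CHD4. The mean of the places by fold enrichment, 86.3%, exceeded that of 87.5% of the 4917 sites in the series with all 4 subunits, whose median was 60.3%. An H3K27ac peak (fold enrichment 9.80) overlapped the site, as at 62.8% of all such sites. H3K4me1 (6.27) lay 451 bp from the site and overlapped the H3K27ac peak. No FLI1 peak was near. Over all coding genes 37.9% had a site with all 4 subunits in the window. An end of NPY5R was the nearest annotated end of a coding gene, 52.4 kb from the site's midpoint, which does not show that the site acts on it.

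**Figure D2:**
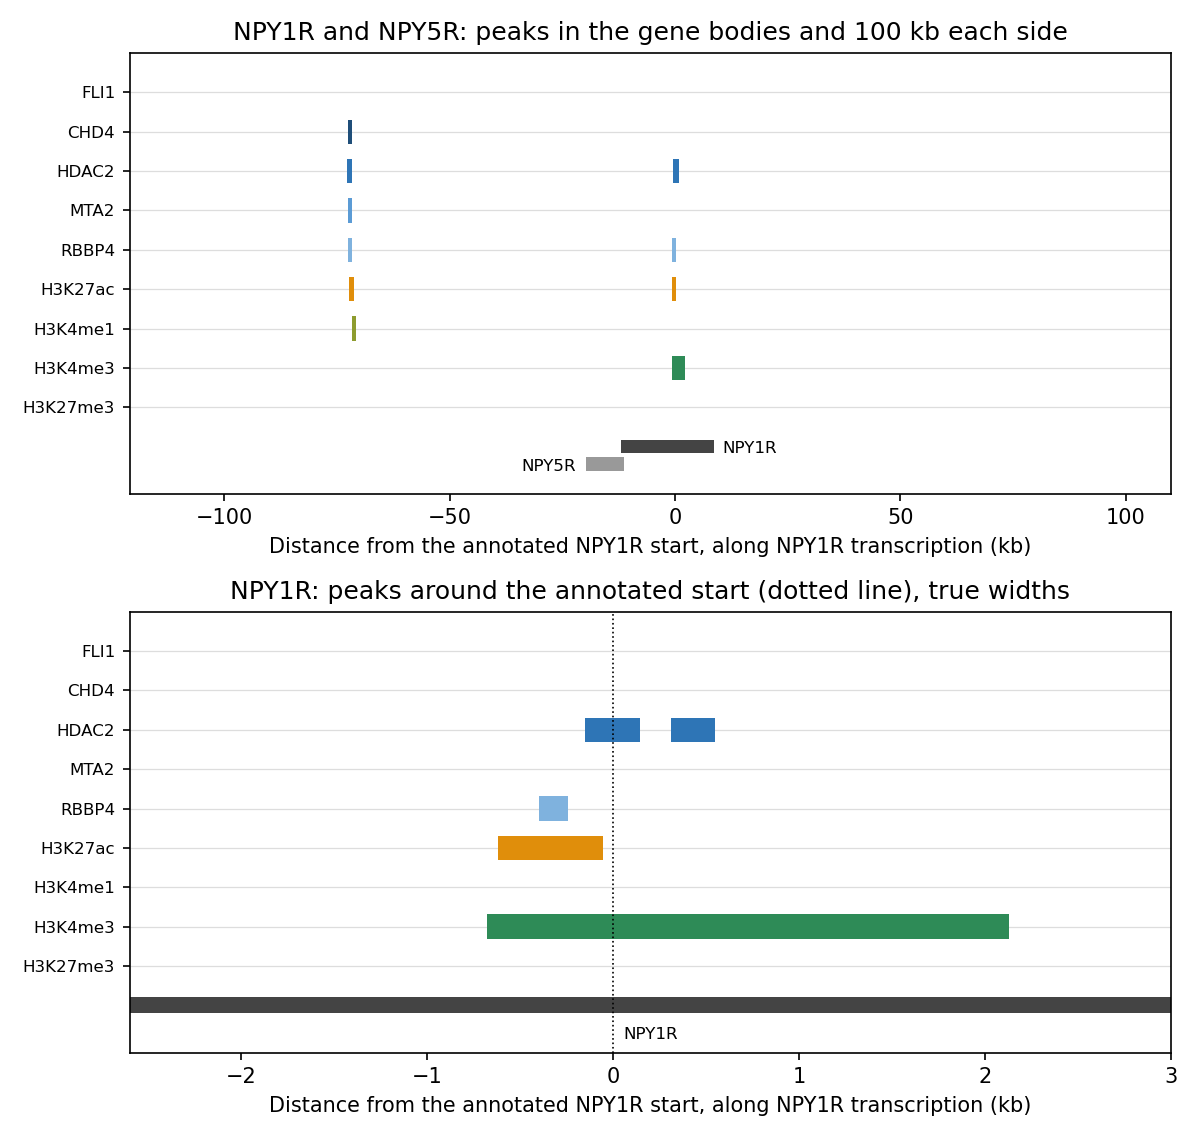
Peaks of the 9 lists around NPY1R and NPY5R, as bars placed by distance in kb from the NPY1R start along NPY1R transcription, with gene bodies in grey. The upper panel covers 100 kb each side (narrow peaks drawn wider than they are) and shows the group at the NPY1R start and the group with all 4 subunits beyond NPY5R, and the lower panel shows the NPY1R start at true width.

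NPY itself (chromosome 7, 24284190 to 24291862, plus strand) had no peak of any of the 9 lists in its gene body or 100 kb on either side. That was so for 8.25% of coding genes, and the median over all of them was 17 peaks per window. NPY is the sole coding gene in its window, and its body lies inside that of the long noncoding RNA gene LOC107986777 (24141282 to 24445138). Among the 1090 coding genes alone in their window, 26.3% had no peak and the median was 5. The nearest peak of any list was an H3K4me1 peak 186 kb away (fold enrichment 7.92), and 94.9% of coding genes had one nearer. H3K4me3, HDAC2, CHD4, RBBP4 and MTA2 were nearest at about the same place, 281 kb away, where PALS2, the next coding gene, begins in the table (24573452). H3K27ac was nearest at 688 kb and FLI1 at 2163 kb. H3K27me3, the Polycomb mark, was nearest at 464 kb, so NPY had no peak of this mark in its window either. Most coding genes had none, since 14.5% had one. The H3K27me3 list held 3420 peaks, of median width 499 bp, and none on chromosome 18. The lack of a peak in it therefore does not show that NPY lacks this mark. H3K27me3 was the only list of the 9 in which NPY lay nearer to a peak than the median over coding genes, which was 758 kb.

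The absence of a peak at NPY, and at NPY5R, stands beside stretches rich in CG. Of the 6699 stretches with at least 24 CG dinucleotides, 71.8% had an H3K4me3 peak over the start, against 48.1% of all 22199 stretches, and the NPY start had none. For as many CG dinucleotides as before the first and second NPY5R start the shares were 71.8% and 68.4%, and neither start had such a peak. Peak lists hold only what passed the authors' threshold, so weaker signal at NPY cannot be seen, and the number of copies of this region in SKNMC was not tested.

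**Figure D3:**
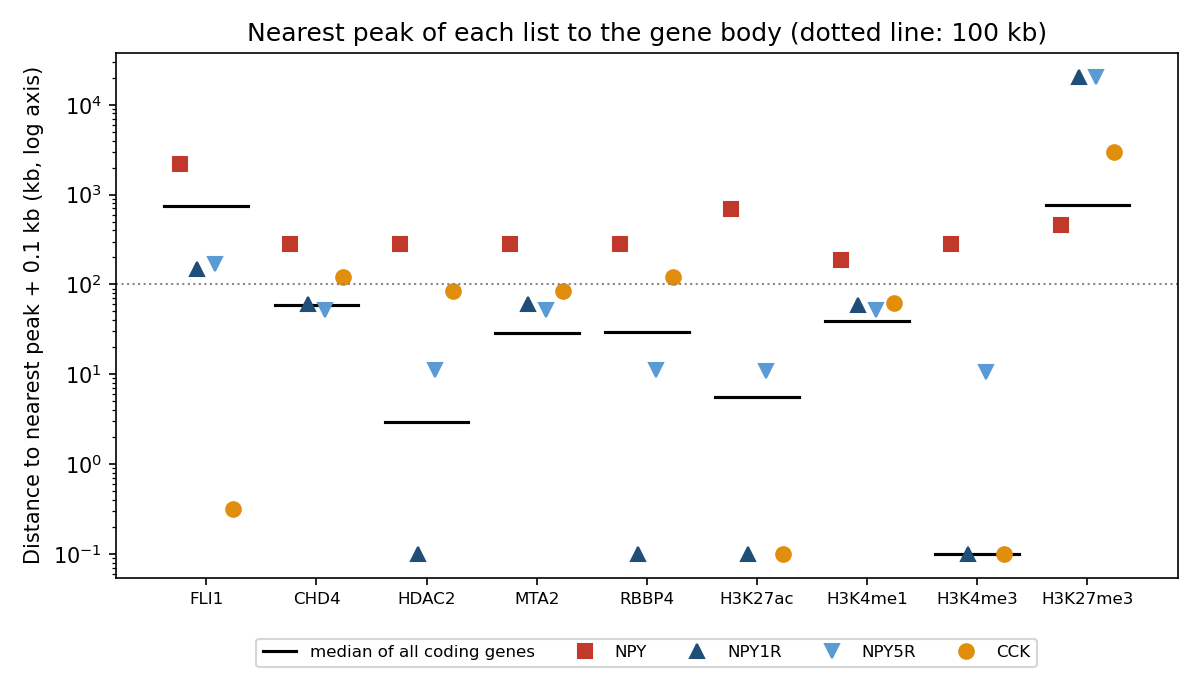
Distance in kb from each member's gene body to the nearest peak of each list (log axis, 0.1 kb added), with a black line at the median of 20037 coding genes and a dotted line at 100 kb. NPY lies above 100 kb for all 9 lists, while CCK is at 0.216 kb for FLI1, and NPY1R and CCK overlap H3K27ac and H3K4me3.

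The order of the members by the number of peaks in the window was NPY1R and NPY5R with 11, CCK with 10 and NPY with 0. The 11 and 10 do not differ in a way that a single list per target could show, and both are under the median of 17. H3K27ac gave 5 peaks at CCK and 2 at the receptor pair, with the highest fold enrichments at 10.03 and 9.80. Windows with an H3K27ac peak made up 77.8% of all, with H3K4me1 65.9% and with H3K4me3 85.1%, so CCK and the receptor pair were with the majority in all of these marks. H3K4me1 had 1 peak each in the CCK window and in the receptor window, of almost the same fold enrichment (6.22 and 6.27), and both overlapped an H3K27ac peak away from the starts. The highest HDAC2 peaks by fold enrichment lay 84.9 kb from CCK and 52.2 kb from NPY5R, not at the starts, at or above 98.3% and 99.05% of the list (81.2% and 88.0% by −log10 p).

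The limit of 100 kb decided some of these counts. Just inside it were the HDAC2 and MTA2 peaks 84.9 and 85.05 kb from CCK. Just outside it, 107 kb from NPY1R, were an H3K27ac peak (fold enrichment 8.93) and, at 107.5 kb, an HDAC2 peak of fold enrichment 10.9. A site with all 4 subunits lay 122 kb from CCK, inside LYZL4, and the one that overlapped FLI1 lay 147 kb from NPY1R.

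**Figure D4:**
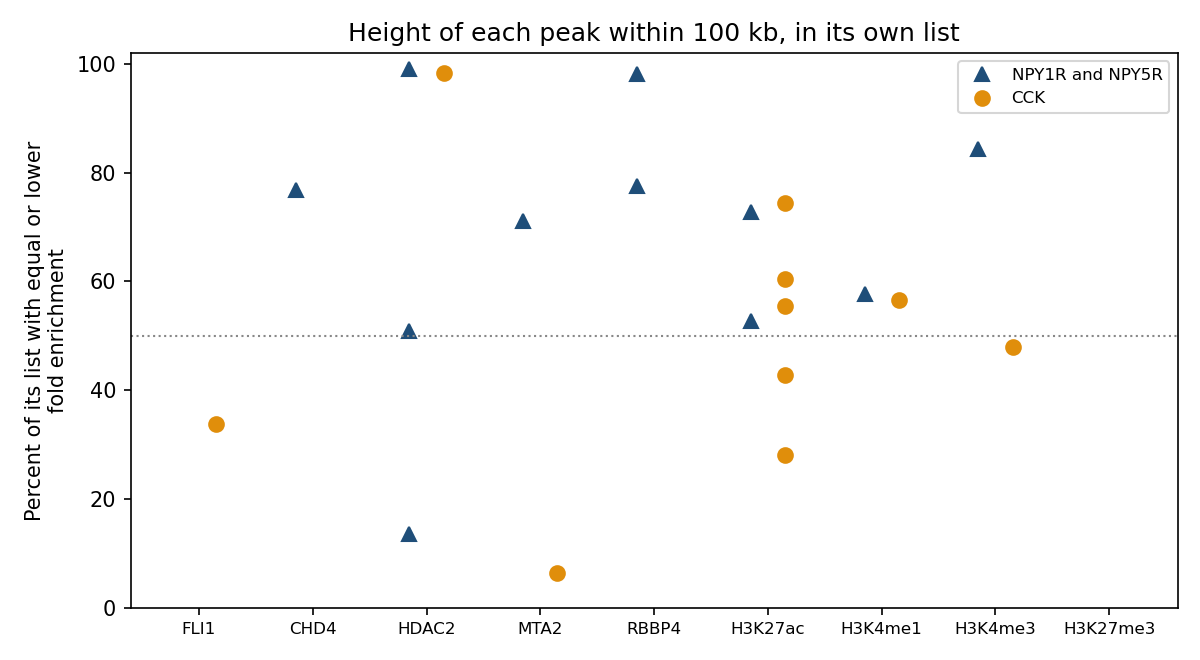
Fold enrichment of each of the 21 peaks as the percent of its own list at or below it, by target, for the NPY1R and NPY5R window (triangles) and the CCK window (circles), with a dotted line at the middle of a list. The 3 highest points are HDAC2 in both windows and RBBP4 in the receptor window, and the FLI1 peak at CCK is at 33.8.

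The genes whose windows were most like a member's were sought by the mean absolute difference, over the 9 targets, in the percent of the list at or below the strongest peak (0 where none). For NPY1R and NPY5R alike these were SAMD4A (3.75 points), MIA3 (4.07) and TUBB2A (4.34). For CCK they were NUP214 (7.91), ELF5 (8.38) and CAT (8.61), and none of these had a FLI1 peak in its window. For NPY 1649 genes tied at 0, the first in alphabetical order being A2M, ACKR1 and ACSM2A. The likeness of CCK to its nearest genes was thus weaker than that of the receptor pair.

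Other genes of the same systems were taken from 4 fixed lists with 26 genes, all found by symbol. Of the 4 other NPY family genes (the peptides PYY and PPY, the receptors NPY2R and NPY4R), 0 had a FLI1 peak in the window (12.7% of all coding genes), 3 had H3K27ac (77.8%) and 2 had H3K4me3 (85.1%), too few genes to set the family apart. NPY2R, like NPY, had no peak of any list. None of the 4 had a peak of any list within 1 kb of a listed start, so NPY1R was the sole one of the 7 family genes with H3K4me3 within that distance. PYY had 31 peaks in its window, including a site with all 4 subunits, PPY 13 and NPY4R 4. NPY4R has a near-identical copy, NPY4R2, so peaks there are uncertain.

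Among the gastrin and cholecystokinin family, GAST, the gastrin gene, had 68 peaks in its window, with a FLI1 peak of fold enrichment 13.7 at 21.04 kb. That peak was over 2 times as high as the one at CCK but lay farther from the gene, and its window also holds other genes. The receptor genes CCKAR and CCKBR had 3 peaks each and no FLI1 or H3K27ac peak within 100 kb. No gene of this list had a peak within 1 kb of a listed start, and no start was listed for CCKAR.

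Of 9 genes for peptide processing and secretion, 2 had FLI1 in the window, against 12.7% of all coding genes: PCSK2, a prohormone convertase, with peaks of fold enrichment 7.11 at 36.05 kb and 9.13 at 57.7 kb, and CPE, the carboxypeptidase that trims cut peptides (12.6, 99.2 kb). H3K27ac was in 5 of the 9 windows (77.8% of all coding genes) and HDAC2 in all 9 (81.3%). PCSK2 had H3K27ac, H3K4me3, CHD4, HDAC2 and RBBP4 within 1 kb of its start. PAM, the amidating enzyme that finishes both NPY and CCK, had H3K4me3 and HDAC2 there. Of 10 other neuropeptide genes 1, GRP (gastrin-releasing peptide), had FLI1 in the window (fold enrichment 7.41, 14.8 kb away). GRP and NMB had H3K4me3 within 1 kb of a start, against 61.1% of the coding genes with a listed start. No start was listed for GAL, or for CHGB and SCG2 among the processing genes, so these could not be called. With so few genes these counts do not set the lists apart. VIP and TAC1 had no peak of any list, as NPY. The median number of peaks per window was 8.5, 3, 11 and 11 in the 4 lists, against 17 over all coding genes. H3K27me3 had a peak in none of the 26 windows, against 14.5% of all. Its list covers the genome unevenly, with no peak on chromosome 18, where ADCYAP1 and GRP lie. The nearest one to NPY2R was 28580.6 kb away. The absence is therefore not read as a trait of these genes.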

How the data were processed

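Peak lists from ChIP-seq of SKNMC cells were used, 1 for each of 9 targets. Each sample's title gave its target. The submitters' processing notes name GRCh38, BWA 0.7.17, Trimmomatic 0.36, FastQC 0.11.7, bedtools 2.27.1, deepTools 3.2.1 and SAMtools 1.9, and the deposited peak names carry MACS2. Its version, the control and any pooling or exclusion of regions were not given in the sources used here. Each deposited peak has a −log10 p and a fold enrichment, which is a ratio, both made by the authors. The deposited −log10 q was not used.

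Positions were made 1-based. Genes, starts and upstream sequences came from RefSeq tables of GRCh38.p14, and exon boundaries were not used here. A peak counted for a gene when it lay in the body or within 100 kb, with an overlap of at least 1 bp. Overlapping subunit peaks were merged into sites. The counting was tested on simulated data (2000 of 2000 windows recovered). No test was run. Python 3.11.15, pandas 2.3.3 and matplotlib 3.10.9 were used. Named peaks were all FLI1 peaks, all sites with 4 subunits, peaks in or within 1 kb of a member and the highest peak of each target per window; the 3 most alike genes lay over 1 Mb from every member. The members and lists were chosen with earlier results of these data known. The alternatives were windows of 50 and 200 kb, −log10 p of at least 15 or 9 in every list, an overlap of 50% of the shorter peak, and all genes of the table.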

Additional observations from a re-analysis of the deposited data

How the results depend on the processing

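Of 26 recomputed values 13 stayed within 1.5 times the value given and 13 moved. When every list was held to −log10 p of 15 or more, no FLI1 peak was left near a member (0 instead of 1), since the CCK peak has 9.99, and CCK kept 5 peaks instead of 10, while 6.54% of genes kept a FLI1 peak instead of 12.7%. With windows of 50 kb CCK had 6 peaks, the receptor pair 5 instead of 11, sites with all 4 subunits 0 instead of 1, and the FLI1 share was 8.41%. With windows of 200 kb NPY had 3 peaks (all H3K4me1), the receptor pair 39, CCK 26, FLI1 2, sites with all 4 subunits 3, and the FLI1 share was 20.5%. The FLI1 peak gained is the one 147 kb from NPY1R. A threshold of 9 in every list, added after seeing the data, moved none of its 6 values by more than 1.5 times. No paired analysis was possible because each target had 1 sample. Depth is unknown, so a place without a peak cannot be told apart from a place sequenced too thinly.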
